A study of Mus musculus with 6 samples.

Results

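The genes described here are named after proteins of the mitochondrial ribosome. They were taken as every gene in the deposited table whose symbol is Mrpl or Mrps followed by a digit, with pseudogene symbols left out. The rule used no measured value and gave 78 of the 27179 genes listed, 49 named Mrpl after the large subunit and 29 named Mrps after the small subunit. Messenger RNA had been sequenced from primary vascular smooth muscle cells of the mouse aorta in 6 libraries, 3 labelled Bmal1 KO and 3 labelled WT. Cells of both genotypes had spent 7 days in a medium with glucose at 4.5 g/L and hydrogen peroxide at 0.3 mM, on a base of DMEM with 10% fetal bovine serum. Bmal1 encodes a core activator of the circadian clock. The labels do not give the deletion's promoter or design, the age or sex of the mice, or whether the replicates of a group were grown from different animals. The spread that enters each p-value is therefore that among these libraries, and it may be technical.

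The mitochondrial ribosome reads the few messenger RNAs made from mitochondrial DNA, which encode core subunits of the respiratory chain and ATP synthase. Its ribosomal RNAs come from mitochondrial DNA, while all of its proteins are encoded in the nucleus, made in the cytosol and imported. Some of these proteins have counterparts in bacterial ribosomes, and others exist only in mitochondria.

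Assigned reads numbered 38074293, 32503525 and 33738702 in Bmal1 KO replicates 1, 2 and 3, against 40850549, 44657471 and 39129037 in WT replicates 1, 2 and 3. Bmal1, listed as Arntl, went against its label: its normalized count was 1005 ± 54.9 in libraries labelled Bmal1 KO and 579 ± 45.7 in WT libraries (SD, n = 3 each), so every direction below is between labels. Whole-gene counts do not check the deletion of part of a gene, and whether labels had been exchanged, which would turn every direction, was not tested. Xist, expressed from the inactive X chromosome, had 3867 ± 23.1 in libraries labelled Bmal1 KO and 58.7 ± 40.8 in WT libraries. The Y-linked genes Ddx3y, Eif2s3y, Kdm5d and Uty ran the other way, with 77.1 ± 7.53, 101 ± 22.8, 49.96 ± 23.6 and 26.1 ± 11.3 in KO-labelled libraries, against 3109 ± 285, 2178 ± 389, 1286 ± 156 and 648 ± 79.1 in WT libraries. Genotype label and sex-linked expression therefore cannot be told apart in any comparison here. The summed normalized count of 10 smooth muscle markers ran from 159263 to 170431 in KO-labelled libraries and from 56034 to 63292 in WT libraries, and all 10 were called higher in KO-labelled libraries. The sum of 6 fibroblast markers ran from 234562 to 248599 in KO-labelled libraries and from 137721 to 157214 in WT libraries, mostly as Col1a1, with 4 markers called higher but Dcn and Lum called lower (log2 fold changes of -3.45 and -3.05). The sum of 7 endothelial markers ran from 840 to 1110 in KO-labelled libraries and from 332 to 471 in WT libraries, with 6 of them called higher. The sum of 6 macrophage markers ran from 2162 to 2422 in KO-labelled libraries and from 3577 to 4132 in WT libraries, with Cd14 and Cd68 called lower (-2.83 and -2.22) and the other 4, Ptprc, Csf1r, Adgre1 and Lyz2, called higher (log2 fold changes of 2.61, 2.05, 1.64 and 1.20). No marker was at 0 in all libraries, and the part of cell makeup in the results below was not tested. In such bulk samples fewer cells of a type and less RNA per cell cannot be told apart.

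Messenger RNA for the mitochondrial ribosome was lower in libraries labelled Bmal1 KO. Of 77 genes tested, 53 fell, 3 rose (Mrpl39, Mrpl48 and Mrpl20) and 21 did not pass the test (limma with a Benjamini-Hochberg adjusted p threshold of 0.05 over 16086 genes). Over all genes tested, 34.9% were called lower and 36.2% higher in KO-labelled libraries, 71.1% in all, so a call by itself was common in this comparison. The median log2 fold change, libraries labelled Bmal1 KO minus WT, was -0.47 over the 77 genes, with a middle range of -0.77 to -0.23, against -0.01 over all genes, with a middle range of -0.56 to 0.75. The 77 log2 fold changes ran from -1.44 to 0.40 and had an SD of 0.37, against an SD of 1.48 over all genes. Thus 70 of the 77 estimates were negative, and most were modest: 5 were below -1 and 0 were above 1. In edgeR 59 of the genes fell and 1 rose, against 36.6% and 34.7% of all genes, and in DESeq2 55 fell and 3 rose, against 34.1% and 36.0%. With TMM scaling 61 fell and 1 rose, against 38.2% and 33.8%, and with upper-quartile scaling 48 fell and 4 rose, against 32.5% and 38.2%.

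**Figure D1:**
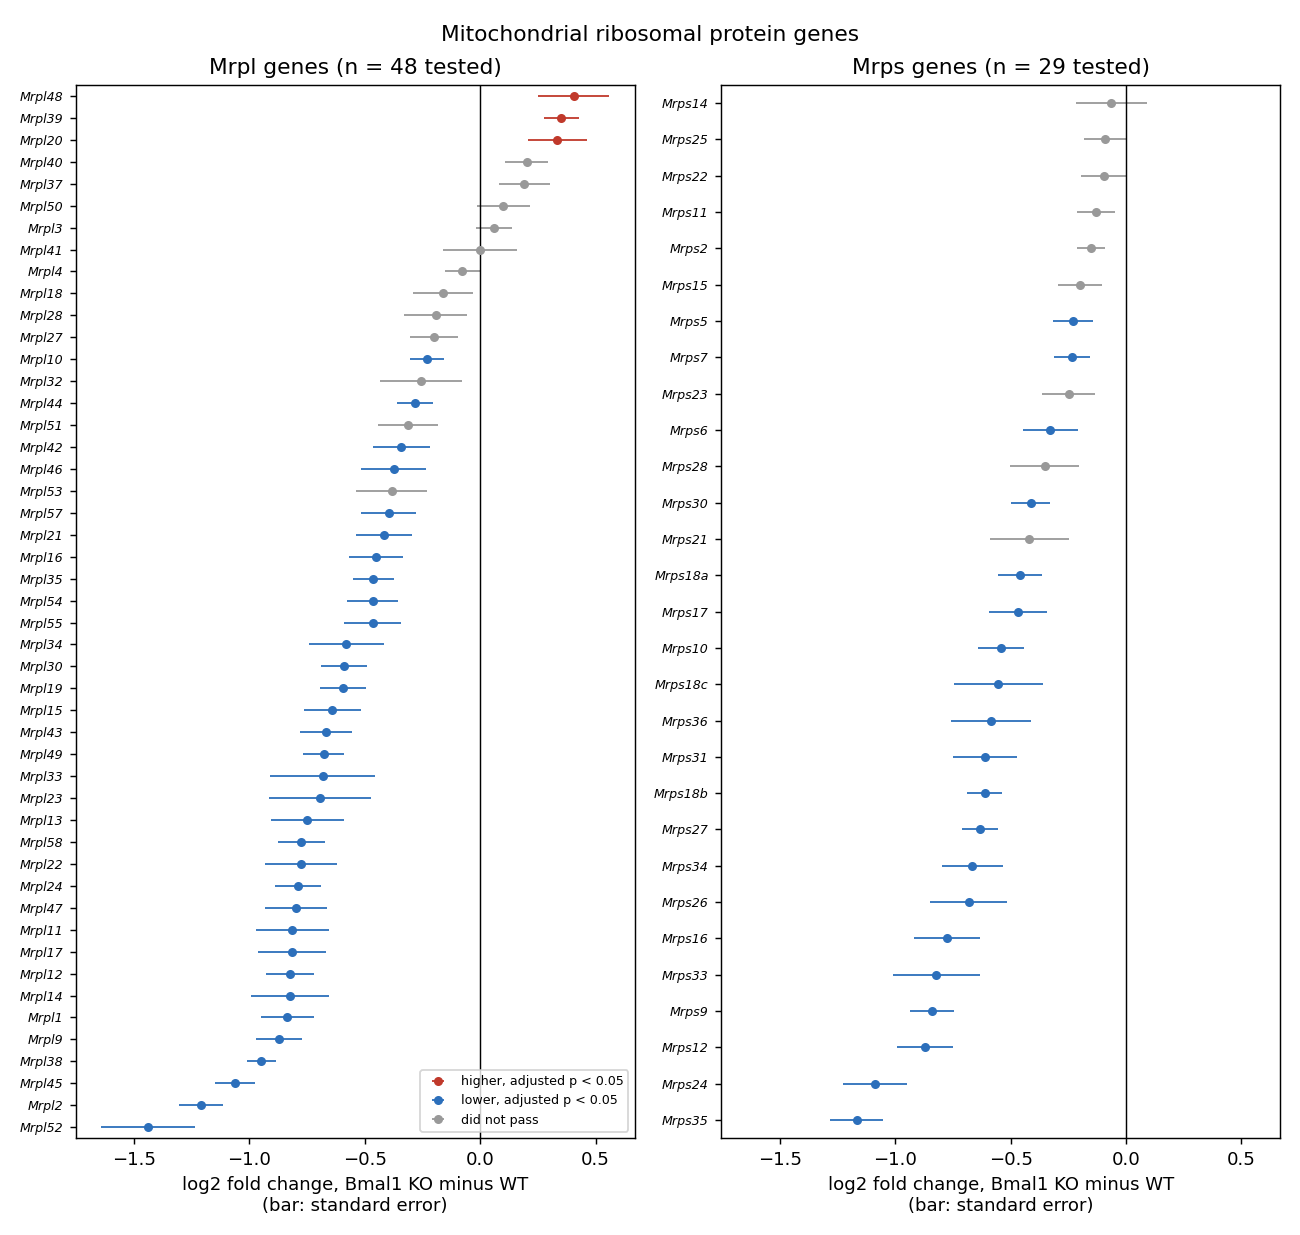
Log2 fold change (x axis, libraries labelled Bmal1 KO minus WT) of each gene tested, with Mrpl genes in the left panel and Mrps genes in the right panel, where bars are standard errors and colour gives the call. Blue points to the left of 0 are the 53 genes that fell, red points the 3 that rose and grey points the 21 that did not pass.

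All 3 KO-labelled libraries lay below all 3 WT libraries for 59 of the 77 genes, and above them for 1, while the groups overlapped for 17. Over all genes tested, the share with every KO-labelled library below WT was 38.2% and the share above was 38.5%. The 78 genes together took 0.215%, 0.195% and 0.205% of assigned reads in Bmal1 KO replicates 1, 2 and 3, against 0.356%, 0.285% and 0.285% in WT replicates 1, 2 and 3. WT replicate 1 was the highest library, and WT replicates 2 and 3 still lay above every KO-labelled library. Their summed normalized count was 79512 ± 3764 in KO-labelled libraries and 113879 ± 16871 in WT libraries (SD, n = 3 each), which was 1.43-fold lower in KO-labelled libraries and 1.31-fold lower with WT replicate 1 left out.

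**Figure D2:**
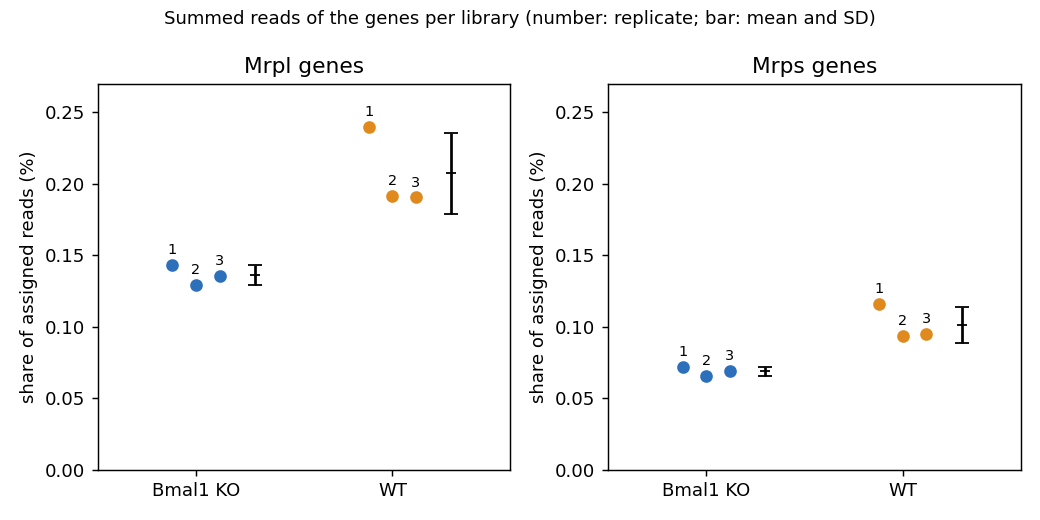
Share of assigned reads (y axis, percent) taken by Mrpl genes in the left panel and Mrps genes in the right panel, in each library, with numbers giving the replicate and bars the mean and SD of 3 libraries. In both panels the 3 Bmal1 KO points lie below the 3 WT points, and WT replicate 1 is the highest.

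WT replicate 1 stood apart from the other WT libraries for these genes. It was the highest WT library for 70 of the 78 genes, against 40.9% of all genes tested. The median log2 difference between it and the mean of WT replicates 2 and 3 was 0.32 over the genes of the mitochondrial ribosome and 0.02 over all genes. With that library left out, 50 genes fell and 4 rose (35.6% and 37.1% of all genes), the median log2 fold change was -0.37, and 72 of the 77 estimates moved upward. Mrpl42, Mrps5, Mrps18c, Mrpl46 and Mrpl23 no longer passed, at adjusted p of 0.0590, 0.0731, 0.0543, 0.0882 and 0.0624 in limma, while Mrps2, Mrpl53 and Mrpl37 now did (0.0270, 0.0266 and 0.00302). Among KO-labelled libraries replicate 1 was also the highest for most of the set, 55 of the 78 genes. The matching share over all genes was not computed.

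**Figure D3:**
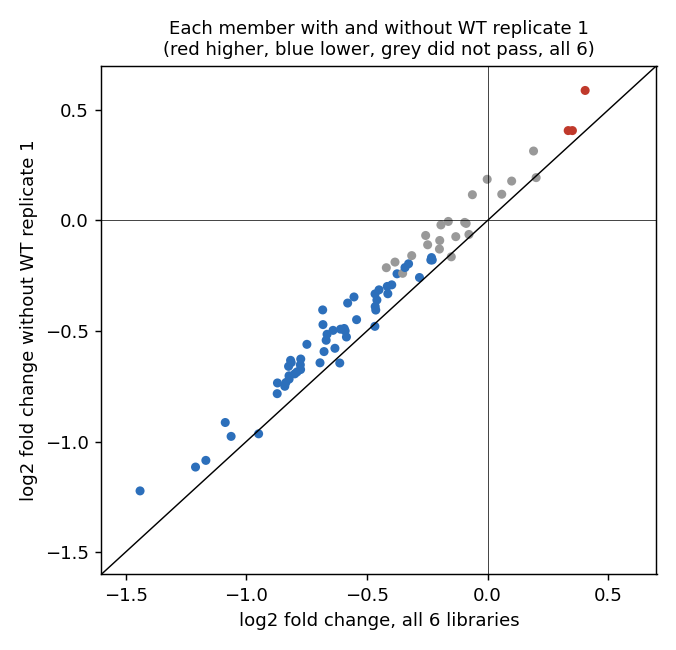
Log2 fold change of each gene tested with WT replicate 1 left out (y axis) against the value from all 6 libraries (x axis), libraries labelled Bmal1 KO minus WT, with the diagonal marking equal values and colour the call from all 6. Most points lie above the diagonal, 72 of 77, and most of the blue points remain below 0 on both axes.

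Short transcripts moved in the same direction as the genes described here. Their median transcript length was 1052 bases, from 405 to 6073, against 2221 bases over all genes tested, and 55 of the 78 were shorter than 1500 bases. All 4564 tested transcripts under 1500 bases had a median log2 fold change of -0.17, with 41.6% called lower, and stood 0.18 higher in WT replicate 1 than in the other WT libraries. The 2745 transcripts over 4000 bases had a median of 0.26, with 24.2% called lower, and stood at -0.19. After removal of a trend with length and GC content, 44 of the 77 genes fell and 5 rose, with a median of -0.37, against 38.5% of all genes called lower and 37.2% higher. Among the 77 genes themselves Spearman's rho between log2 fold change and length was 0.068, a description across genes that share libraries.

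Mrpl and Mrps genes, grouped by symbol, had nearly the same median. Of 48 Mrpl genes tested 33 fell and 3 rose, with a median log2 fold change of -0.47, and of 29 Mrps genes 20 fell and 0 rose in limma, edgeR or DESeq2, since all 29 estimates were negative, with a median of -0.47. The summed normalized count of Mrpl genes was 1.99, 1.97 and 1.96 times that of Mrps genes in Bmal1 KO replicates 1 to 3, against 2.07, 2.05 and 2.00 in WT replicates 1 to 3. Of 29 large-subunit proteins with a bacterial counterpart, 22 fell and 1 rose (median -0.59), and of 21 large-subunit proteins classed as mitochondria-specific, 13 fell and 2 rose (median -0.38). In the small subunit 10 of 16 genes with a bacterial counterpart fell (median -0.39), as did 7 of 10 classed as mitochondria-specific (median -0.62). Mrps18a and Mrps18b, though paralogs of a bacterial protein, were put in the mitochondria-specific classes of the large and the small subunit by their positions in the ribosome. No difference between these classes was tested.

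The largest fall was that of Mrpl52, a large-subunit protein with no bacterial counterpart. Its normalized count was 1325, 910.0 and 1016 in libraries labelled Bmal1 KO, against 3924, 2571 and 2429 in WT libraries. The groups were well apart, and WT replicate 1 was far above the other WT libraries. The log2 fold change was -1.44 (SE 0.20, adjusted p = 0.000409 in limma), or 2.75-fold lower, and 2.31-fold lower with WT replicate 1 left out.

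Mrpl2, the counterpart of a bacterial protein close to the centre where peptide bonds form, had 1297, 1281 and 1293 in KO-labelled libraries, against 3406, 2965 and 2638 in WT libraries. The KO-labelled libraries were almost equal while the WT libraries spread. The log2 fold change was -1.21 (SE 0.094, adjusted p = 1.69e-05 in limma), or 2.33-fold lower. Mrps35, a small-subunit protein of mitochondria, had 415, 511 and 462 in KO-labelled libraries, against 1161, 1003 and 954 in WT libraries, without overlap. It was 2.25-fold lower (log2 fold change -1.17, SE 0.11, adjusted p = 5.45e-05).

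Mrps24, the counterpart of a bacterial protein at the channel where messenger RNA enters, had 1296, 1168 and 1197 in KO-labelled libraries, against 3294, 2315 and 2280 in WT libraries. It was 2.16-fold lower (adjusted p = 0.000256 in limma), and 1.88-fold lower with WT replicate 1 left out. Mrpl45, which anchors the ribosome at the inner membrane beside the tunnel exit, had 1652, 1547 and 1613 in KO-labelled libraries, against 3775, 3225 and 3088 in WT libraries. It was 2.10-fold lower (adjusted p = 1.96e-05), and WT replicate 1 was again highest. Mrpl38, a protein of the central protuberance, had 1354, 1393 and 1404 in KO-labelled libraries, against 2612, 2814 and 2594 in WT libraries. Here WT replicate 1 did not stand apart, and the fall was 1.93-fold with all libraries and 1.95-fold without it (adjusted p = 6.86e-06).

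**Figure D4:**
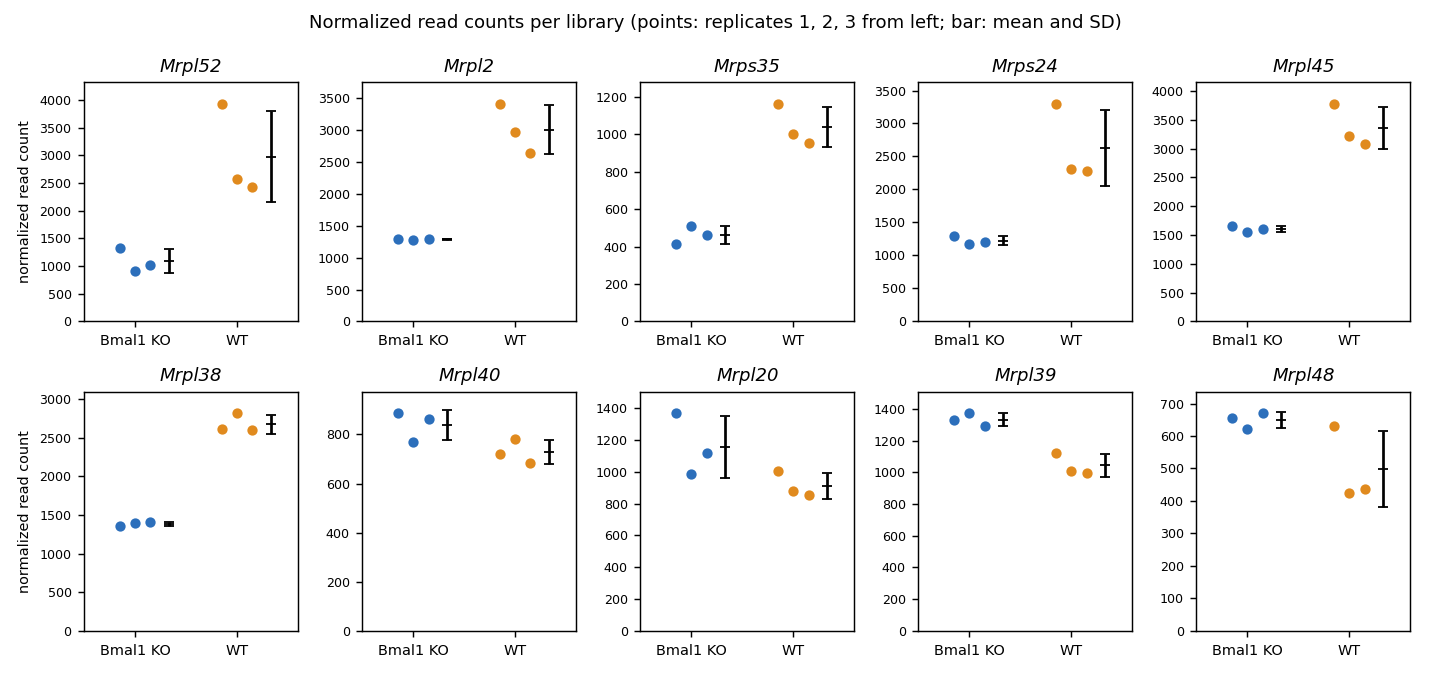
Normalized read count (y axis, from 0) in each library labelled Bmal1 KO, left, and WT, right, for the 6 genes with the largest falls and 4 of those with the largest rises, with bars giving mean and SD of 3 libraries. The groups are apart for the 6 genes that fell most and for Mrpl39, and overlap for Mrpl40, Mrpl20 and Mrpl48.

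Mrpl39, a large-subunit protein found only in mitochondria, was the clearest gene in the opposite direction. It had 1332, 1372 and 1290 in KO-labelled libraries, against 1125, 1011 and 996 in WT libraries. Every KO-labelled library was above every WT library, which held for no other gene of the set. It was 1.27-fold higher (log2 fold change 0.35, SE 0.075, adjusted p = 0.00352 in limma) and kept its call under all alternatives tried.

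Mrpl48, of the central protuberance, had 654, 622 and 669 in KO-labelled libraries, against 632, 425 and 437 in WT libraries. WT replicate 1 lay within the range of the KO-labelled libraries and the other WT libraries lay below it. The rise was 1.30-fold (log2 fold change 0.40, SE 0.16, adjusted p = 0.0456 in limma), and adjusted p was 0.1004, 0.0802 and 0.117 without Bmal1 KO replicates 1, 2 and 3 and 0.124 and 0.143 without WT replicates 2 and 3. Mrpl20, the counterpart of a bacterial protein that binds ribosomal RNA early in assembly, had 1368, 987 and 1116 in KO-labelled libraries, against 1005, 877 and 852 in WT libraries, with overlap. Its 1.27-fold rise (adjusted p = 0.0462 in limma) had an adjusted p of 0.144 and 0.0884 without Bmal1 KO replicates 1 and 3, and of 0.0977 and 0.135 without WT replicates 2 and 3. Both calls were also lost in edgeR, at 0.0638 for Mrpl48 and 0.0523 for Mrpl20.

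The next estimates above 0 did not pass. Mrpl40, of the central protuberance, had 886, 767 and 861 in KO-labelled libraries, against 720, 780 and 685 in WT libraries (log2 fold change 0.20, adjusted p = 0.0805 in limma). For Mrpl37 the log2 estimate was 0.19 (adjusted p = 0.153), and 0.31 without WT replicate 1 (adjusted p = 0.00302). For Mrpl50 the estimate was 0.10 (adjusted p = 0.454). Mrpl37 and Mrpl50 are large-subunit proteins without a bacterial counterpart.

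The stalk of the large subunit recruits the translation factors, and all 3 genes listed for it here fell. In the whole set 68.8% of genes tested fell, and among all genes 34.9%. Mrpl12, which forms the flexible arm, had 1363, 1355 and 1339 in KO-labelled libraries, against 2827, 2274 and 2131 in WT libraries (log2 fold change -0.82, adjusted p = 0.000237 in limma). Mrpl11, at the stalk base, had 873, 683 and 794 in KO-labelled libraries, against 1738, 1212 and 1224 in WT libraries (log2 fold change -0.81, adjusted p = 0.00209). Mrpl10, which joins the arm to the base, differed less. It had 2584, 2593 and 2515 in KO-labelled libraries, against 3294, 2985 and 2780 in WT libraries (log2 fold change -0.23, adjusted p = 0.0218). Its adjusted p was 0.0569, 0.0571 and 0.0768 without Bmal1 KO replicates 1, 2 and 3.

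Genes listed for proteins around the tunnel exit, through which the new chain leaves, fell in 6 of 6 cases, with a median log2 fold change of -0.79. The share that fell was 68.8% in the whole set and 34.9% among all genes tested. Besides Mrpl45 these were Mrpl17, Mrpl22, Mrpl23, Mrpl24 and Mrpl47, all of them counterparts of bacterial proteins. Mrpl17 had 1845, 1681 and 1869 in KO-labelled libraries, against 4081, 2848 and 2725 in WT libraries (log2 fold change -0.82, adjusted p = 0.00148 in limma). Mrpl47 (-0.80, adjusted p = 0.00103), Mrpl24 (-0.79, adjusted p = 0.000205) and Mrpl22 (-0.78, adjusted p = 0.00266) fell by much the same amount. Mrpl23 was the lowest of the 77 per length, with 51.0, 39.6 and 53.7 in KO-labelled libraries, against 83.5, 67.2 and 83.8 in WT libraries (log2 fold change -0.69, adjusted p = 0.0215). Its adjusted p was 0.0721 without Bmal1 KO replicate 2, 0.0624 without WT replicate 1 and 0.0687 without WT replicate 3.

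The 5 genes listed for the central protuberance, which bridges to the small subunit, were mixed, with 2 lower, 1 higher and 2 that did not pass. The list may not hold every protein of this region. Mrpl38 fell, Mrpl48 rose and Mrpl40 did not pass, as given above. Mrpl46 had 440, 429 and 375 in KO-labelled libraries, against 647, 512 and 467 in WT libraries (log2 fold change -0.38, adjusted p = 0.0414 in limma), a call lost without any one of Bmal1 KO replicates 1, 2 and 3 (0.0581, 0.0745 and 0.133) or of WT replicates 1 and 2 (0.0882 and 0.0534). Mrpl18 had 1511, 1408 and 1414 in KO-labelled libraries, against 2013, 1412 and 1485 in WT libraries (log2 fold change -0.16, adjusted p = 0.289), with overlap. No test compared this region with the others.

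Mammals carry a trio of paralogs of bacterial ribosomal protein S18, and all 3 fell, beside 68.8% of the whole set and 34.9% of all genes tested. Mrps18b had 648, 611 and 609 in KO-labelled libraries, against 911, 996 and 952 in WT libraries (log2 fold change -0.61, adjusted p = 0.000230 in limma). Mrps18a, whose protein sits in the large subunit, had 1289, 1205 and 1215 in KO-labelled libraries, against 1948, 1641 and 1533 in WT libraries (log2 fold change -0.46, adjusted p = 0.00324). Mrps18c had 695, 592 and 571 in KO-labelled libraries, against 1209, 691 and 892 in WT libraries, with overlap (log2 fold change -0.55, adjusted p = 0.0314). The call of Mrps18c was lost without Bmal1 KO replicates 2 or 3 (0.0845 and 0.0961) and without WT replicates 1 or 3 (0.0543 and 0.0723).

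Mrps30 is a further gene with a small-subunit symbol whose protein belongs to the large subunit, and it fell 1.34-fold, with 1327 ± 53.7 in KO-labelled libraries and 1772 ± 180 in WT libraries (SD, n = 3 each, adjusted p = 0.00303 in limma). Mrps36 is now known as a subunit of the ketoglutarate dehydrogenase complex of the citric acid cycle. It stays in the set and its counts, which were taken by symbol. It had 208, 139 and 184 in KO-labelled libraries, against 284, 248 and 256 in WT libraries (log2 fold change -0.58, adjusted p = 0.0161), without overlap.

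Levels per length, as normalized counts per kilobase of transcript averaged over the 6 libraries, had a median of 930 and a middle range of 499 to 1812 over the 77 genes, and the highest was 53.2 times the lowest. Mrpl52 was highest at 4854 per kilobase, followed by Mrpl33 at 3523 and Mrpl30 at 3377, both large-subunit proteins with bacterial counterparts. The order of levels was much the same in both groups, with a Spearman's rho of 0.96 across genes. Mrpl33 had 1439, 1105 and 1251 in KO-labelled libraries, against 2973, 1567 and 1769 in WT libraries (log2 fold change -0.68, adjusted p = 0.0257 in limma), a call lost without Bmal1 KO replicates 2 or 3 (0.0845 and 0.0666). Mrpl30 fell by 0.59 on the log2 scale (adjusted p = 0.00116). Mrpl36, a large-subunit protein with a bacterial counterpart, was the gene that did not reach the filter: it had 4, 3 and 5 reads in KO-labelled libraries, against 4, 10 and 8 in WT libraries, and it was not tested. The median coefficient of variation between replicates was 6.03% in KO-labelled libraries and 13.9% in WT libraries.

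The 21 genes that did not pass were Mrps2, Mrps11, Mrps14, Mrps15, Mrps21, Mrps22, Mrps23, Mrps25, Mrps28, Mrpl3, Mrpl4, Mrpl18, Mrpl27, Mrpl28, Mrpl32, Mrpl37, Mrpl40, Mrpl41, Mrpl50, Mrpl51 and Mrpl53, named here after their values were seen. Every KO-labelled library was below every WT library for 7 of them, against 38.2% of all genes tested. The gene set was spread over 17 chromosomes, most densely on chromosome 11 with 11 genes. Exons of 15 of the 78 genes overlapped those of other genes in GENCODE M21 over more than 10% of their length. Whether the counting used these other genes is not given, so counts of all 15 are uncertain. For 4 the other gene lies on the same strand, so that a strand setting would not separate them: Mrpl53 (100% of its exons), Mrps6 (36.0%), Mrpl33 (22.4%) and Mrps18c (18.5%). For the other 11 it lies on the opposite strand, and the strand setting of the counting is not given in the sources used here. Among these were Mrps18b (59.1%), Mrps25 (58.2%), Mrpl24 (38.2%), Mrps30 (18.1%), Mrpl12 (15.2%), Mrpl10 (14.1%) and Mrpl47 (13.4%).

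BMAL1 and CLOCK bind the E-box CACGTG, so promoters were searched for it. Of 69 genes with a RefSeq promoter (GRCm38.p6, 250 bases before to 50 after the start), 5 held a CACGTG, which reads the same on both strands. They are shown as 30 bases with the E-box in capitals, because the labelled genotype concerns the protein that binds it. The stretches lie at chr17:46646078-46646107 (plus strand) for Mrpl2, chr4:155802833-155802862 (plus) for Mrpl20, chr13:73330954-73330983 (plus) for Mrpl36, chr4:107067011-107067040 (minus) for Mrpl37 and chr5:100798584-100798613 (plus) for Mrps18c.
Mrpl2: actgccgcccgtCACGTGacccgagcaacc
Mrpl20: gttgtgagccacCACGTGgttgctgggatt
Mrpl36: cacacgtcatccCACGTGaccttacgccat
Mrpl37: agcaagtttcttCACGTGtggcacttcaga
Mrps18c: gcagccccgggtCACGTGacttccggcccg

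These genes went different ways. Mrpl2 and Mrps18c fell, Mrpl20 rose, Mrpl37 did not pass and Mrpl36 was not tested. Counted per promoter, since a gene can have several starts, 9.33% of the 75 windows held the E-box, against 7.15% of all 32851 windows and 9.39% of the windows of tested genes. The same Mrpl2 site was counted in 3 overlapping windows. Counted per gene, 5 of 69 held the E-box, against 2187 of all 27025 genes with a window and 1358 of 12174 tested genes. The E-box began 131, 139 and 147 bases before the 3 starts of Mrpl2, 33 before that of Mrpl20, 43 before that of Mrpl36, 162 before that of Mrpl37 and 163 before that of Mrps18c. Matches are descriptions of sequence, and no binding was measured.

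Motifs of general activators of mitochondrial genes were searched on both strands in the same windows. The ETS motif CCGGAAGT, which GABP binds, was in 16% of the windows, against 3.89% of all windows and 6.84% of those of tested genes. The YY1 motif AAGATGGC was in 16%, against 2.75% and 3.81%, and the palindromic NRF1 motif in 4.0%, against 0.971% and 1.74%. The windows had a median GC content of 58.7%, against 52.7% over all windows. Of the 12 genes with the ETS motif 6 fell and 1 rose (median log2 fold change -0.43), while 40 of the 57 without it fell and 2 rose (median -0.46). Of the 12 with the YY1 motif 8 fell, 3 did not pass and 1 was not tested (median -0.46), and of the 57 without it 38 fell and 3 rose (median -0.47). For these motifs the medians with and without were close. The median was -0.18 with the E-box and -0.46 without it, and -0.26 with the NRF1 motif, in 3 genes, and -0.46 without it, none of which was tested.

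The 100 bases upstream of the start are shown for the gene that fell most and for the gene whose rise kept its call, at chr14:54426809-54426908 (plus strand) for Mrpl52 and chr16:84735245-84735344 (minus strand) for Mrpl39. Neither stretch held a motif searched, but the 300-base windows around them did, the ETS motif for Mrpl52 and the NRF1 motif for Mrpl39. The GC contents of the stretches were 63.0% and 69.0%.
Mrpl52: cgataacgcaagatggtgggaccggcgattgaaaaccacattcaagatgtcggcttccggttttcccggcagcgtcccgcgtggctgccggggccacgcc
Mrpl39: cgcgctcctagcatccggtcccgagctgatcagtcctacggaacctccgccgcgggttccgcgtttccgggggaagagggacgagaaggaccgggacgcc

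Many of these genes start head to head with a neighbour. A start on the other strand within 1000 bases upstream was found for 26 of the 69 genes (37.7%), against 18.2% of 12174 tested genes with a promoter window. Of 17 such genes that fell, 10 had a neighbour that fell and the other 7 a neighbour that did not pass. Of 9 that did not pass, 2 had a neighbour that fell, 1 a neighbour that rose and 6 a neighbour that did not pass. Mrpl46 and Mrps11 are each other's neighbour and were counted from each side. Over all genes tested, 34.9% were called lower and 36.2% higher, and whether neighbours went together was not tested. Mrpl43 lies 116 bases from the start of Twnk, the helicase of mitochondrial DNA, and their log2 fold changes were -0.67 and -1.36. Mrps12 lies beside Sars2, a mitochondrial tRNA synthetase, with -0.87 and -0.54. Mrpl46 and Mrps11 face each other, with -0.38 and -0.13, of which the second did not pass. These pairs were chosen after their values were seen, and exons of Mrpl43 overlapped those of Twnk over 27.5% of their length. The sequence between the starts of Mrpl43 and Twnk, chr19:45006443-45006557 on the minus strand, reads toward Mrpl43 with its ETS motif in capitals, and that between Mrpl46 and Mrps11, chr7:78783090-78783130 on the minus strand, reads toward Mrpl46.
Mrpl43 and Twnk: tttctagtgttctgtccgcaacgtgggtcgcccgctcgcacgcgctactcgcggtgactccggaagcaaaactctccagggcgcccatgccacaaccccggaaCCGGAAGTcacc
Mrpl46 and Mrps11: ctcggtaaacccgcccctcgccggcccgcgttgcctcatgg

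Proteins of the mitochondrial ribosome that carry other names fell as well, in 5 of 5 cases with a median log2 fold change of -0.76. Among all genes tested, 34.9% were called lower. Dap3, a GTP-binding protein of the small subunit, had 1728, 1646 and 1708 in KO-labelled libraries, against 3805, 2954 and 3116 in WT libraries (log2 fold change -0.95, adjusted p = 7.32e-05 in limma). Ptcd3, a small-subunit protein with RNA-binding repeats, had 1324, 1414 and 1346 in KO-labelled libraries, against 2307, 2257 and 2372 in WT libraries (log2 fold change -0.76, adjusted p = 1.95e-05). For Ptcd3 WT replicate 1 was not the highest library. Gadd45gip1, a large-subunit protein, fell by 0.84 on the log2 scale (adjusted p = 0.000417), and Chchd1 and Aurkaip1, of the small subunit, had -0.64 and -0.58 (adjusted p = 0.00459 and 0.00180).

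Translation factors that work on the mitochondrial ribosome fell in 10 of 12 cases (83.3%), beside 34.9% of all genes tested. Their median log2 fold change was -0.60. Oxa1l, which inserts the new chains into the inner membrane, had 1506 ± 43.3 in KO-labelled libraries and 2404 ± 195 in WT libraries (SD, n = 3 each, log2 fold change -0.67, adjusted p = 0.000118 in limma). The release factor Mtrf1l had 253 ± 5.05 in KO-labelled libraries and 453 ± 28.1 in WT libraries (log2 fold change -0.83, adjusted p = 0.000200), and the initiation factor Mtif3 had 424 ± 15.6 in KO-labelled libraries and 775 ± 97.2 in WT libraries (log2 fold change -0.86, adjusted p = 0.000226). Mtif2, an initiation factor, and Mrrf, a recycling factor, had log2 fold changes of -0.16 and -0.002 and did not pass.

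Assembly factors were mixed, with 18 of 29 lower, 3 higher and a median of -0.42. These calls were 62.1% lower and 10.3% higher, beside 34.9% and 36.2% of all genes tested. Ngrn, which is needed for the large ribosomal RNA to be stable, had 500 ± 9.22 in KO-labelled libraries and 1438 ± 149 in WT libraries (SD, n = 3 each, log2 fold change -1.52, adjusted p = 4.43e-06 in limma). The GTPase Gtpbp6 fell by 1.41 on the log2 scale (adjusted p = 1.73e-05), and the pseudouridine synthase Rpusd4, which acts on the large ribosomal RNA, fell by 1.02 (adjusted p = 2.98e-05). Mterf4, which works with an RNA methyltransferase in late large-subunit assembly, rose instead, with 1683 ± 19.9 in KO-labelled libraries and 1195 ± 58.5 in WT libraries (log2 fold change 0.50, adjusted p = 0.000295). Spg7, a subunit of the protease that matures Mrpl32 in mouse mitochondria, rose by 0.28 on the log2 scale (adjusted p = 0.00524). Afg3l2, of the same protease, fell by 0.29 (adjusted p = 0.00259), with 3142 ± 116 in KO-labelled libraries and 3832 ± 97.3 in WT libraries. The inner membrane protein Mpv17l2 rose by 0.35 (adjusted p = 0.0282). The call of Mpv17l2 was lost without any one of the 3 KO-labelled libraries (0.0875, 0.0620 and 0.0594) or of WT replicates 2 and 3 (0.0693 and 0.0932).

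Genes for mitochondrial transcription and messenger RNA handling fell in 10 of 14 cases, with a median of -0.41, beside 34.9% of all genes tested. They rose in 0 by limma, edgeR or DESeq2, or at an unadjusted p under 0.05, beside 36.2% of all genes in limma. Tfam, which packages mitochondrial DNA and starts its transcription, had 993, 926 and 1067 in KO-labelled libraries, against 3261, 2470 and 2688 in WT libraries (log2 fold change -1.49, adjusted p = 1.32e-05 in limma). Lrpprc, which stabilizes mitochondrial messenger RNA, had 2174 ± 76.6 in KO-labelled libraries and 3285 ± 19.0 in WT libraries (SD, n = 3 each, log2 fold change -0.60, adjusted p = 4.87e-05). Polrmt, the mitochondrial RNA polymerase, had 1428 ± 57.5 in KO-labelled libraries and 2226 ± 253 in WT libraries (adjusted p = 0.000425).

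Aminoacyl-tRNA synthetases of mitochondria fell in 7 of 17 cases and rose in 1, and 9 did not pass (median -0.27), beside 34.9% of all genes called lower. Vars2, Nars2 and Hars2, for valine, asparagine and histidine, had log2 fold changes of -0.96, -1.18 and -0.62 (adjusted p = 3.61e-05, 0.000121 and 0.000209 in limma). Lars2, for leucine, had 164229, 138239 and 170495 in KO-labelled libraries, against 65033, 41229.8 and 82597 in WT libraries (log2 fold change 1.38, adjusted p = 0.00124). Every KO-labelled library was above every WT library, and whether all its reads came from the Lars2 messenger RNA was not tested.

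Of the 13 protein-coding genes of mitochondrial DNA, whose messenger RNAs this ribosome translates, 11 were tested. Of these 6 fell and 3 rose (54.5% and 27.3%), beside 34.9% and 36.2% of all genes tested. The number that fell was 3 without Bmal1 KO replicate 2 and 4 without Bmal1 KO replicate 3 or WT replicate 3, and the number that rose was 1 without Bmal1 KO replicate 3. Together they took 0.794%, 0.777% and 0.828% of assigned reads in Bmal1 KO replicates 1 to 3, against 1.09%, 1.03% and 1.18% in WT replicates 1 to 3, with no overlap and with WT replicate 3 the highest. mt-Nd1, of respiratory complex I, fell by 0.68 on the log2 scale (adjusted p = 0.000333 in limma), mt-Co1, of cytochrome oxidase, fell by 0.55 (adjusted p = 0.00406) and mt-Co2 fell by 1.37 (adjusted p = 0.00550) on only 35 reads in KO-labelled libraries and 122 reads in WT libraries, too few for the stricter filter. mt-Nd3 rose by 3.59 (adjusted p = 4.92e-05) on 326 reads in KO-labelled libraries and 32 reads in WT libraries. Reads were also few for mt-Atp6 (43 in KO-labelled libraries and 106 in WT libraries) and mt-Co3 (87 and 118). The untested mt-Nd4l and mt-Atp8 had 24 and 3 in KO-labelled libraries and 8 and 14 in WT libraries, while mt-Co1 had 403456 and 740829. Whether all reads of these messenger RNAs were counted was not tested, so the joint shares cover counted reads only. mt-Cytb rose by 0.29 and mt-Nd4 by 0.27 (adjusted p = 0.0106 and 0.0145), calls lost without Bmal1 KO replicate 3 (0.0572 and 0.0706). The call of mt-Nd4 was also lost with the length and GC trend removed (log2 fold change 0.12, adjusted p = 0.434 in limma). The ribosomal RNAs themselves, mt-Rnr2 and mt-Rnr1, had log2 fold changes of -1.11 and -0.78 (adjusted p = 0.000612 and 0.00296) in libraries made from polyadenylated RNA.

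**Figure D5:**
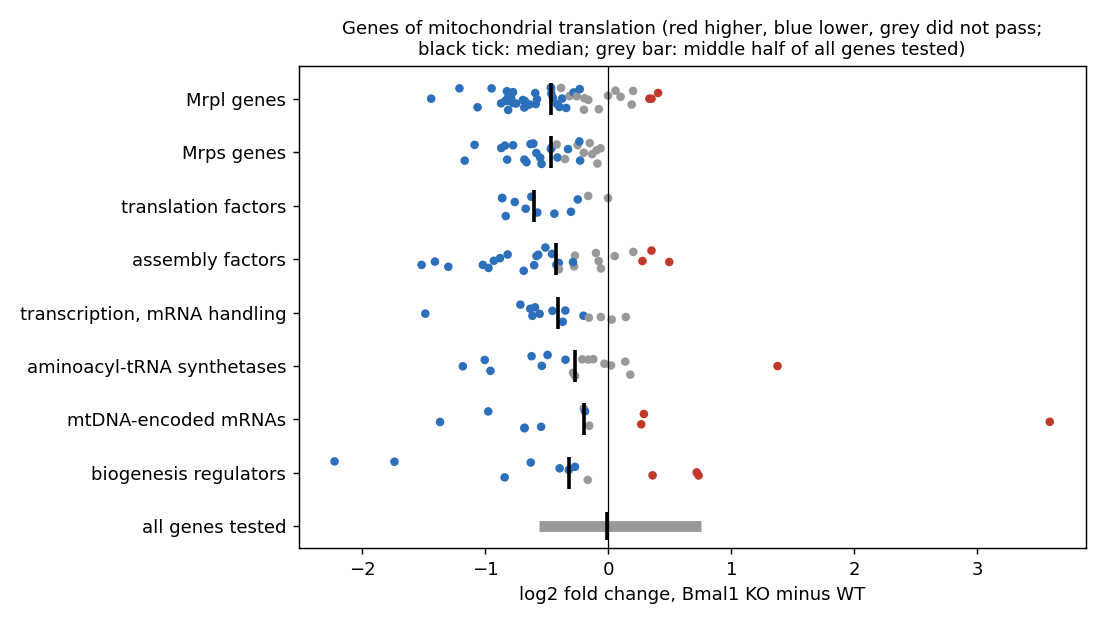
Log2 fold change (x axis, libraries labelled Bmal1 KO minus WT) of each tested gene of mitochondrial translation, with 1 row of points per gene list, black ticks at list medians and a grey bar over the middle range of all genes tested. Blue points, the genes that fell, outnumber red points, those that rose, in each of the 8 lists.

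Among 11 regulators of mitochondrial gene expression, 7 fell and 3 rose (63.6% and 27.3%), beside 34.9% and 36.2% of all genes tested. Myc, a growth regulator that acts on many ribosome genes, had 2208, 2386 and 2245 in KO-labelled libraries, against 10692, 11163 and 10140.0 in WT libraries (log2 fold change -2.23, adjusted p = 1.01e-07 in limma). The subunits of GABP, which binds the ETS motif, went different ways: Gabpb1 fell by 0.84 on the log2 scale (adjusted p = 7.20e-05), while Gabpa had 2649, 2590 and 2455 in KO-labelled libraries, against 1567, 1533 and 1573 in WT libraries (log2 fold change 0.72, adjusted p = 2.44e-05). Gabpb2 rose by 0.36 (adjusted p = 0.0119), which turned to -0.084 (adjusted p = 0.300) when the length and GC trend was removed. The nuclear receptor Esrra fell by 0.63 (adjusted p = 9.72e-05). Ppargc1a, a coactivator of mitochondrial biogenesis, had 211, 205 and 113 in KO-labelled libraries, against 99.97, 103 and 102 in WT libraries (log2 fold change 0.73, adjusted p = 0.0293), and the call was lost without Bmal1 KO replicate 1 or 2 (0.0976 and 0.103) or without any one WT library (0.0601, 0.050001 and 0.0697 without replicates 1, 2 and 3). Ppargc1b, another of the 11, fell, with 29.6 ± 6.37 in KO-labelled libraries and 100 ± 16.5 in WT libraries (SD, n = 3 each). Its log2 fold change was -1.74 (adjusted p = 0.000472 in limma). Of the genes for proteins whose motifs were searched, Nrf1 fell by 0.40 (adjusted p = 0.00278). Yy1 did not pass (-0.17, adjusted p = 0.0650), though it did in some alternatives, such as TMM scaling (0.0212). With the length and GC trend removed its log2 fold change was -0.54 (adjusted p = 0.000879 in limma). The motif counts above do not say which of these proteins was bound at any promoter.

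Ribosomal protein genes of the cytosol moved further in the same direction, with 80 of 85 tested called lower in limma, all 85 estimates negative and a median log2 fold change of -1.72, against -0.47 for those of the mitochondrial ribosome. The cytosolic genes called lower were 94.1%, beside 34.9% of all genes tested. Only 5 of the 77 mitochondrial genes were below -1, against 74 of the 85 cytosolic ones. The difference between these lists was not tested.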

How the data were processed

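Per the labels' protocols, libraries came from total RNA through the Illumina Stranded mRNA Prep Kit. The submitters' processing notes name Trimmomatic, HISAT2, featureCounts and the mm10 build, without versions or roles. Neither gives the gene annotation or the strand option of the counting (not given in the sources used here). The authors' deposited table gives a non-negative signal per gene and library. In the deposited table every signal was a whole number of reads divided by 1 factor per library (100% of values within 0.01), and these factors equalled recomputed median-ratio size factors. Such scaling rests on most genes being equal or differing evenly, and it yields the values called normalized counts here.

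Sample titles gave the groups and replicate numbers. Values were tested as log2(value + 1) with limma 3.58.1 in R 4.3.3 (eBayes with trend, group as the only term) over 16086 genes with at least 10 in at least 3 libraries, and p-values were adjusted over all of them by the Benjamini-Hochberg method. WT was subtracted from Bmal1 KO. The pseudocount makes log2 fold changes of low genes too small, and folds were computed from group means without it. The script was tested on simulated data. No pair of replicates agreed within sampling noise.

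Alternatives were a pseudocount of 0.5 or 5, no filter, a filter of 50 in 3 libraries, TMM and upper-quartile scaling, edgeR 4.0.16 (quasi-likelihood with TMM) and DESeq2 1.42.0 on the recovered reads, the replicate number as a block, a length and GC trend removed, and each library left out. On the recovered reads edgeR called 5588 genes higher and 5891 lower.

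Transcript lengths and GC content came from GENCODE M21 on GRCm38, and coordinates, promoters and names from RefSeq on GRCm38.p6. All 78 genes matched by Gene ID and 69 had a promoter. Genes were named by a rule: the 6 largest rises and falls, the 3 highest per length, all genes of the stalk, tunnel exit, central protuberance and S18 lists, Mrps30, Mrps36, genes called higher or not tested, and up to 3 genes per direction from each pathway list by adjusted p. Other genes were named after their values were seen. The gene set, the lists and the rule were chosen with earlier results of these data known.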

Additional observations from a re-analysis of the deposited data

How the results depend on the processing

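The number of genes of the mitochondrial ribosome called lower was 53 and ran from 41 to 61 over the alternatives: 61 with TMM scaling, 48 with upper-quartile scaling, 59 in edgeR, 55 in DESeq2, 44 after correction for length and GC content, and 41 to 55 with 1 library left out. The median log2 fold change of the set ran from -0.54 to -0.37, against -0.07 to 0.04 over all genes. The number called higher was 3, and was 1 with TMM scaling, 1 in edgeR, 5 with the length and GC trend removed (Mrpl40 and Mrpl37 added) and 1 to 4 with 1 library left out; the cause was not tested. No call of a gene of the set turned round, and 41 of the 77 kept both call and direction under all alternatives: 38 of the 53 that fell, 1 of the 3 that rose and 2 of the 21 that did not pass. Log2 estimates that changed sign, all without a call, were those of Mrpl41 (0.051 with upper-quartile scaling, 0.27 with the length and GC trend removed, -0.12 to 0.19 with 1 library left out), Mrps14 (-0.18 to 0.12) and Mrpl50 (-0.018 to 0.18) with 1 library left out, Mrpl3 with TMM scaling (-0.0018), and Mrps11 (0.010), Mrpl4 (0.11) and Mrps22 (0.0053) with the length and GC trend removed. That trend's removal ended 11 calls of genes that fell, in limma with adjusted p of 0.274 for Mrpl42, 0.160 for Mrps6, 0.0998 for Mrpl33, 0.0869 for Mrps18c, 0.0825 for Mrpl46, 0.0795 for Mrpl23, 0.0766 for Mrpl10, 0.0702 for Mrps17, 0.0604 for Mrps36, 0.0574 for Mrps7 and 0.0561 for Mrpl34, and added Mrps25 (0.0114) and Mrpl51 (0.0176).

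Pathway genes called lower and higher numbered 56 to 62 and 7 to 9 with 1 library left out, against 65 and 10 with all. With the length and GC trend removed the log2 estimates of Gabpb2 (-0.084, adjusted p = 0.300 in limma), Fastkd2 (-0.25, adjusted p = 0.0352), Trub2 (0.029), Fastkd1 (-0.060), Fastkd3 (0.081) and Fars2 (0.049) changed sign, as did those of Mrrf (0.051) and Fars2 (0.021) with upper-quartile scaling, Mrrf in DESeq2 (0.0046), Fastkd1 (-0.033), Yars2 (-0.038) and Fastkd2 (-0.0084) with TMM scaling, and Yars2 in edgeR (-0.0043). With 1 library left out the estimates crossed 0 for mt-Co3 (-0.35 to 0.059), Fastkd1 (-0.079 to 0.087), Fastkd5 (-0.12 to 0.0055), Mrrf (-0.043 to 0.070), Fars2 (-0.0976 to 0.055) and Yars2 (-0.043 to 0.080). Of these genes Gabpb2 alone had a call with all libraries. The mitochondrial ribosomal RNAs had no length and were not in the fit with the trend removed.

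The correlations of same-numbered libraries' deviations were -0.004, 0.03 and 0.08. No KO-labelled library correlated best with the WT library of its own number. With 3 libraries a group, these correlations cannot decide whether libraries that share a number were paired. In the gene set, replicate 1 was the highest library of its group for 70 genes in WT and for 55 in KO-labelled libraries. Whether a batch shared by same-numbered libraries acted on these genes was not tested. With the replicate block 59 genes of the set were called lower and 3 higher, against 53 and 3 without it. At 3 libraries a group the calls rest on few values.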
